A study of Mus musculus with 10 samples.

Results

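Genomic DNA of male mouse embryonic stem cells (mESCs) was sequenced at low coverage after 20 passages in Mulas2019 conditions (p20), and compared with the lines they were grown from, sampled when the experiment began (p0). The comparison uses 4 of the 10 libraries, namely replicates 1 and 2 at p0 and at p20, and 2391 of the 2541 bins of 1 Mb that held enough reads, these being the bins on chromosomes 1 to 19. In the fits of p20 against p0 the other 6 libraries entered only through the estimate of the spread. The SEs and p-values of that comparison therefore also rest on them, except where a fit without them is named. Further below, p20 is also compared directly with the p10 libraries of Mulas2019 conditions and the p20 libraries of Keniry2022 conditions. Both groups came from 2 independently derived C57/Bl6 lines kept in 2i/LIF medium, and each replicate number stands for 1 line, so each time point is a group of 2 and says little about other lines. The p0 cells had been derived with the study's own method (Keniry2022) before each line was divided. From then on the p20 cells followed the published Mulas2019 protocol, with less frequent passaging, lower plating density and growth on gelatin; the deposited labels call this arm Old. Depth was 30515890 and 30644653 reads at p0 and 35106917 and 28600192 reads at p20 in lines 1 and 2, which left a median counting error of 0.017 and 0.018 in the log2 ratio of a bin.

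2i/LIF medium holds mESCs in the naive state of pluripotency with inhibitors of the kinases MEK and GSK3 and the cytokine LIF. Cultured stem cells are known to gain or lose whole chromosomes and smaller segments, and such changes spread when the cells that carry them outgrow the rest. In bulk DNA the share of reads from a region follows its average copy number over all cells, so a gain in some cells and a gain in all cells differ only in size. A bin with 3 copies in place of 2 in every cell would shift by 0.58 on the log2 scale, and a bin reduced to 1 copy in every cell by -1. The GC content of the mouse genome varies over long stretches, AT-rich stretches being poor in genes and GC-rich stretches being dense in genes.

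The bins called higher and the bins called lower at p20 differed in base composition. The sequences below are 100 bases each from near the centre of 4 called bins and carry the GC content of their bin, with G and C in capitals. They are GRCm38 reference sequence (plus strand), not variants found in the cells. Among the named bins called higher at p20, the most AT-rich printed here had 36.0% GC and the most GC-rich 37.1%, and neither stretch lies in an annotated gene.
chr5:56500162-56500261, from a bin called higher: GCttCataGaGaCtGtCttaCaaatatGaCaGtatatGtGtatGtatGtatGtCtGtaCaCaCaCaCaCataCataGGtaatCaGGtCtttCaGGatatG
chr2:47500039-47500138, from a bin called higher: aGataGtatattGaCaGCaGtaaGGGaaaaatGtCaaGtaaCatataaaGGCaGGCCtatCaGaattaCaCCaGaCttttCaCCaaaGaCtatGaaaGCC
Among the bins called lower, the GC content ran from 48.3% to 49.9%. The chromosome 4 stretch overlaps an annotated exon of Csmd2, a gene for a large membrane protein of neurons, and the chromosome 5 stretch lies in an intron of Sez6l.
chr4:128500093-128500192, from a bin called lower: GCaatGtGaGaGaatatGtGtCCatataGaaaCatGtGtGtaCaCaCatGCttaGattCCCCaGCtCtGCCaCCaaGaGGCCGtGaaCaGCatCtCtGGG
chr5:112500236-112500335, from a bin called lower: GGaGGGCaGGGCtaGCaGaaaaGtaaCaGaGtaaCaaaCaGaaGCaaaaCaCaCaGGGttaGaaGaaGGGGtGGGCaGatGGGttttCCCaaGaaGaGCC

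The first question was which bins differed between p20 and p0. With limma's TREAT test against a minimum fold change of 1.1 and Benjamini-Hochberg adjustment over all 2541 bins at 0.05, 212 autosomal bins (8.87%) were called higher at p20 and 4 (0.167%) lower, while 499 had an unadjusted p under 0.05. Of the 212 higher bins, 65 lay on chromosome 3, where they made up 41.4% of its 157 bins. The other 147 made up 6.58% of the 2234 remaining bins and were spread over the other 18 autosomes, with 2 to 14 on each. The log2FC of the called bins ran from 0.28 to 0.46 on chromosome 3 and from 0.20 to 0.35 elsewhere, all below the size of a full extra copy. These counts rest on single libraries. No bin was called without p0 replicate 1 (356 at an unadjusted p under 0.05) or without p0 replicate 2 (389), and only 39 were called higher without p20 replicate 2.

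The named bins show this split. They were chosen by the largest log2FC in each direction among called bins, with at most 2 per chromosome and side. On chromosome 3, the bin from 44000001 to 45000000 held 199.6 and 199.4 CPM (reads per 1000000 reads of the library) at p0 and 253.2 and 298.5 CPM at p20 in lines 1 and 2. Its log2 ratio was 0.34 in line 1 and 0.58 in line 2. It has a GC content of 36.3% and holds the midpoint of no protein-coding gene. On chromosome 4, the bin from 113000001 to 114000000 held 190.3 and 192.8 CPM at p0 and 238.8 and 250.7 CPM at p20 (log2FC 0.35, SE 0.030, limma adjusted p 0.0112). It holds all of Skint5 and part of Skint6, which belong to a gene family known for selecting T cells in the skin and thymus. On chromosome 5, the bin from 56000001 to 57000000, which is the source of the first sequence above, held 201.3 and 196.4 CPM at p0 and 240.7 and 246.3 CPM at p20 (log2FC 0.29, SE 0.039). On chromosome 2, the bin from 47000001 to 48000000 held 218.0 and 227.8 CPM at p0 and 271.0 and 272.8 CPM at p20 (log2FC 0.29, SE 0.024). In each of these bins both p20 libraries lay above both p0 libraries. That was the case for 1107 autosomal bins (46.3%), so on its own it does not set a bin apart. A second bin of chromosome 3, from 77000001 to 78000000, had a log2FC of 0.46, and the last named one, from 87000001 to 88000000 of chromosome 18, had 0.29. With the GC trend described below removed, none of these 6 bins was called. Their log2FC was then 0.21 for both bins of chromosome 3, 0.11 on chromosome 4, 0.03 on chromosome 5, 0.05 on chromosome 2 and 0.04 on chromosome 18. The chromosome 5 bin also missed the threshold with no block (limma adjusted p 0.0541) and when centred on the autosomal median (limma adjusted p 0.0665), its adjusted p running from 0.0112 with the line as a fixed block to 1 with the GC correction.

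The 4 bins called lower lay in GC-rich, gene-dense DNA. On chromosome 4, the bin from 128000001 to 129000000 held 584.4 and 571.6 CPM at p0 and 498.0 and 489.2 CPM at p20 (log2FC -0.23, SE 0.020, limma adjusted p 0.0151). Its 9 protein-coding genes include Csmd2 and Phc2, the latter a subunit of Polycomb repressive complex 1. On chromosome 7, the bin from 139000001 to 140000000 held 590.3 and 580.5 CPM at p0 and 513.2 and 493.3 CPM at p20 (log2FC -0.22, SE 0.020, limma adjusted p 0.0223). It holds 13 protein-coding genes, among them Inpp5a, an inositol phosphate phosphatase, and Utf1, a transcription factor of undifferentiated stem cells. The bin on chromosome 8 from 119000001 to 120000000 (log2FC -0.22, 17 genes, limma adjusted p 0.0399) holds Mbtps1, the site-1 protease, and Usp10, a deubiquitinase. The bin on chromosome 5 from 112000001 to 113000000 (log2FC -0.21, 12 genes, limma adjusted p 0.0491) holds Myo18b, Sez6l and Grk3, a kinase of G protein-coupled receptors. Both p20 libraries lay below both p0 libraries in these bins, as they did in 1088 autosomal bins (45.5%). The chromosome 8 bin and the chromosome 5 bin missed the threshold with voom (adjusted p 0.05003 and 0.0517). With no block these and the chromosome 7 bin missed it (limma adjusted p 0.0733, 0.0791 and 0.0557). After removal of the GC trend described next, the log2FC of the 4 bins was -0.06 to -0.03 and none was called (limma adjusted p 1 for each).

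Across the autosomes the change followed the GC content of the bin closely in both lines. Outside chromosome 3, the decile of bins with the lowest GC content (35.7% to 37.4%) had a median log2 ratio of 0.22 in line 1 and 0.23 in line 2. The decile with the highest GC content (46.8% to 53.7%) had -0.16 and -0.17, and each decile between had a lower median than the one before. In reads, the median of the most AT-rich decile went from 223.6 to 260.1 CPM in line 1 and from 224.1 to 262.5 CPM in line 2. That of the most GC-rich decile went from 586.3 to 523.2 CPM in line 1 and from 571.8 to 506.6 CPM in line 2. A straight line had a slope of -0.035 per percent GC in line 1 and -0.037 in line 2 and crossed 0 at 42.7% and 42.6% GC. Called bins lay at the ends of this trend, the higher ones in AT-rich and the 4 lower ones in GC-rich DNA. Outside chromosome 3, the bins called higher had GC contents of 35.7% to 39.5% (median 36.9%) against a median of 41.7% over all autosomal bins. Of these 147 bins, 49.0% held the midpoint of no protein-coding gene, against 11.2% of all autosomal bins. Over the 2234 bins outside chromosome 3, which are neighbours on the same chromosomes and not independent, Pearson's r between change and GC content was -0.95 in line 1 and -0.94 in line 2. What made the change follow GC content was not tested.

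**Figure D1:**
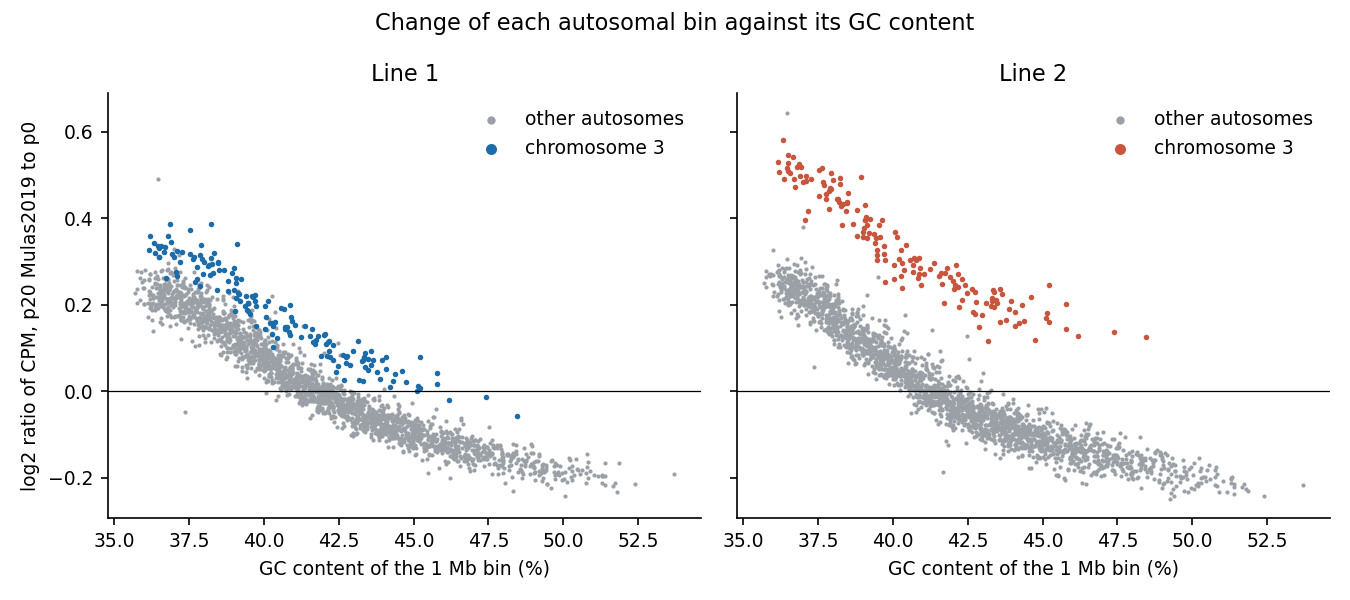
Each point is 1 autosomal bin of 1 Mb, plotted by its GC content in percent (horizontal) and its log2 ratio of CPM at p20 to p0 (vertical), with line 1 on the left, line 2 on the right and chromosome 3 in colour. The other autosomes fall along a single band from about 0.22 in line 1 and 0.23 in line 2 at the AT-rich end to -0.16 and -0.17 at the GC-rich end, and chromosome 3 runs above that band in both lines, further in line 2.

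The scale of the movement can be read from the spread of the bins. The SD of the log2 ratio over autosomal bins was 0.132 in line 1 and 0.155 in line 2, against 0.019 in either line from counting alone. Between the p0 libraries of the 2 lines the SD was 0.028. After a loess curve on GC content was subtracted from each library, the SD was 0.040 in line 1 and 0.074 in line 2. Without chromosome 3 these values were 0.029 and 0.033. After this GC correction limma called 0 autosomal bins, and of the 7 at an unadjusted p under 0.05 all were higher. Only 145 of the 2391 bins moved in opposite directions in the 2 lines before the correction, none by more than 0.06 in both.

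Whole autosomes were compared by the median of their bins relative to the median of all autosomal bins. With limma over 21 chromosomes 10 autosomes differed between p20 and p0, of which chromosome 3 was higher and chromosomes 2, 5, 7, 8, 9, 11, 12, 17 and 19 were lower. The lower shifts ran to -0.10 on chromosome 11, the most GC-rich autosome (median bin 44.02% GC; -0.10 in line 1 and -0.09 in line 2, SE 0.017, limma adjusted p 0.00582). The shift was -0.08 on chromosome 5 and -0.06 on chromosome 19. After the GC correction the shifts of chromosomes 11, 5 and 19 were 0.004, 0.002 and 0.006. Autosomes other than 3 then lay between -0.012 and 0.008 in line 1 and between -0.026 and 0.014 in line 2. Of these, chromosomes 1, 8, 13 and 16 were called lower with limma, at shifts of -0.007 to -0.011. Only chromosome 8 was also called before the correction, when chromosome 16 had a shift of 0.04 (limma adjusted p 0.0511). With a fixed replicate block chromosomes 1 and 16 were called.

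**Figure D2:**
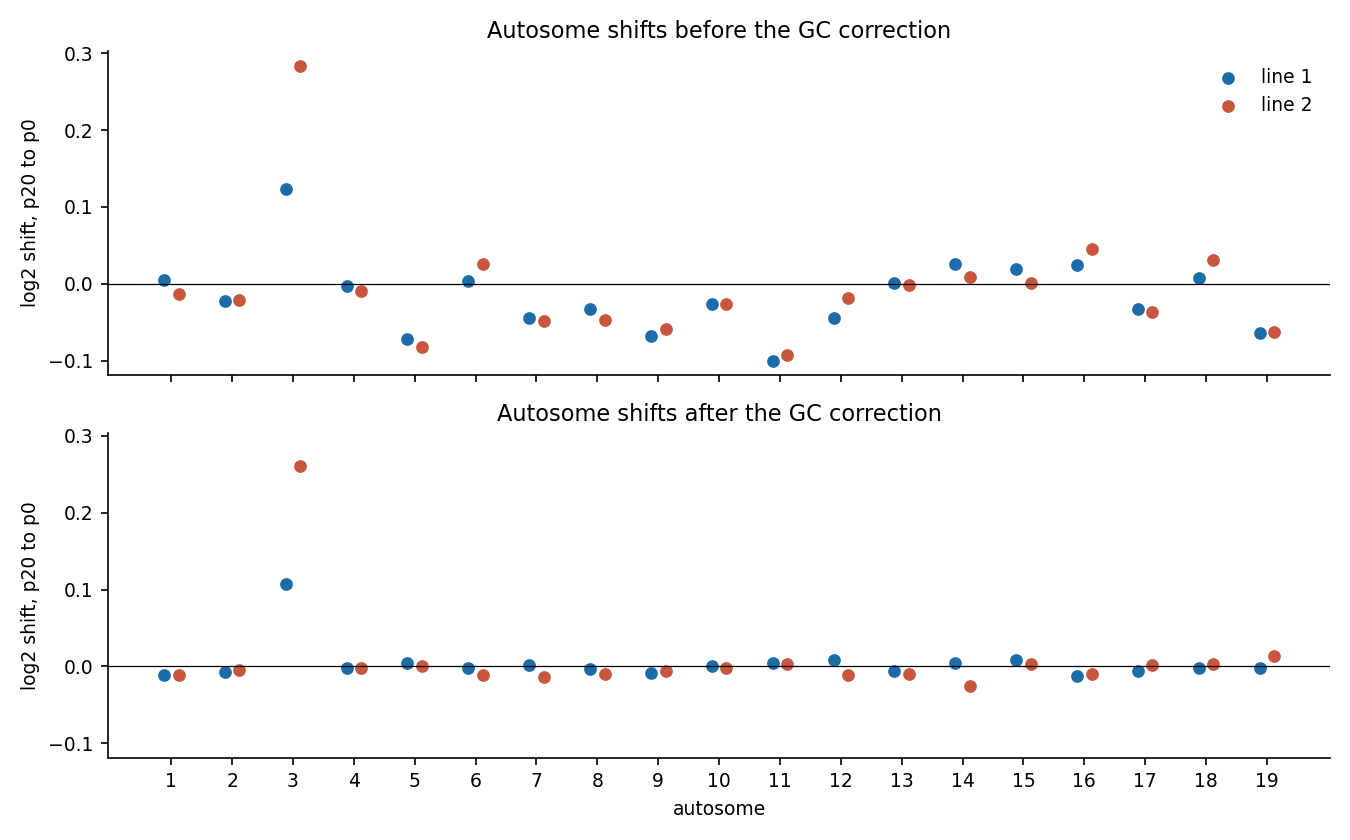
Points give the log2 shift of each of the 19 autosomes from p0 to p20, relative to the autosomal median, in line 1 (blue) and line 2 (red), before (top) and after (bottom) the GC correction. After it, every autosome except chromosome 3 lies within 0.03 of 0 in both lines, while chromosome 3 stays at 0.11 in line 1 and 0.26 in line 2.

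Chromosome 3 stood apart from the trend. It held 5.75% and 5.79% of reads at p0 and 6.40% and 7.14% at p20 in lines 1 and 2. Its shift was 0.12 in line 1 and 0.28 in line 2, with a mean of 0.20 (SE 0.059, limma adjusted p 0.0270). After the GC correction it was 0.11 and 0.26, with a mean of 0.18 (SE 0.060), and the limma adjusted p of 0.0843 missed the threshold. The call was also lost without p0 replicate 1 (0.20, limma adjusted p 0.101), without p0 replicate 2 (0.21, limma adjusted p 0.0903) and without p20 replicate 2 (0.12, limma adjusted p 0.105). In fits of the 4 libraries of this comparison alone the shift was 0.20 with a limma adjusted p of 0.113 without a block and 0.167 with the line as a fixed block, so the call rests on the spread shared with the other 6 libraries. Of the 157 bins of chromosome 3, all lay above 0 in both lines after the GC correction. In line 1, 139 of them lay above the 99th percentile of the bins on other autosomes (0.07), and in line 2 all 157 did (0.06).

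The higher level ran along the whole of chromosome 3. In 8 segments of 20 Mb the GC-corrected median was 0.09 to 0.12 in line 1 and 0.21 to 0.28 in line 2, whereas the 124 segments on the other autosomes ran from -0.04 to 0.03 in line 1 and from -0.04 to 0.03 in line 2. The lowest of the 8 was the segment from 140000001 to 160000000 in both lines, with 0.09 and 0.21. The bins of chromosome 3 varied among themselves by an SD of 0.030 in line 1 and 0.034 in line 2, close to the 0.029 and 0.033 of the other autosomes. If the other autosomes held 2 copies, the median bin would correspond to a mean of 2.16 copies of chromosome 3 per cell in line 1 and 2.41 in line 2. Whether some cells carried 1 extra copy was not measured, since bulk DNA gives only the mean.

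**Figure D3:**
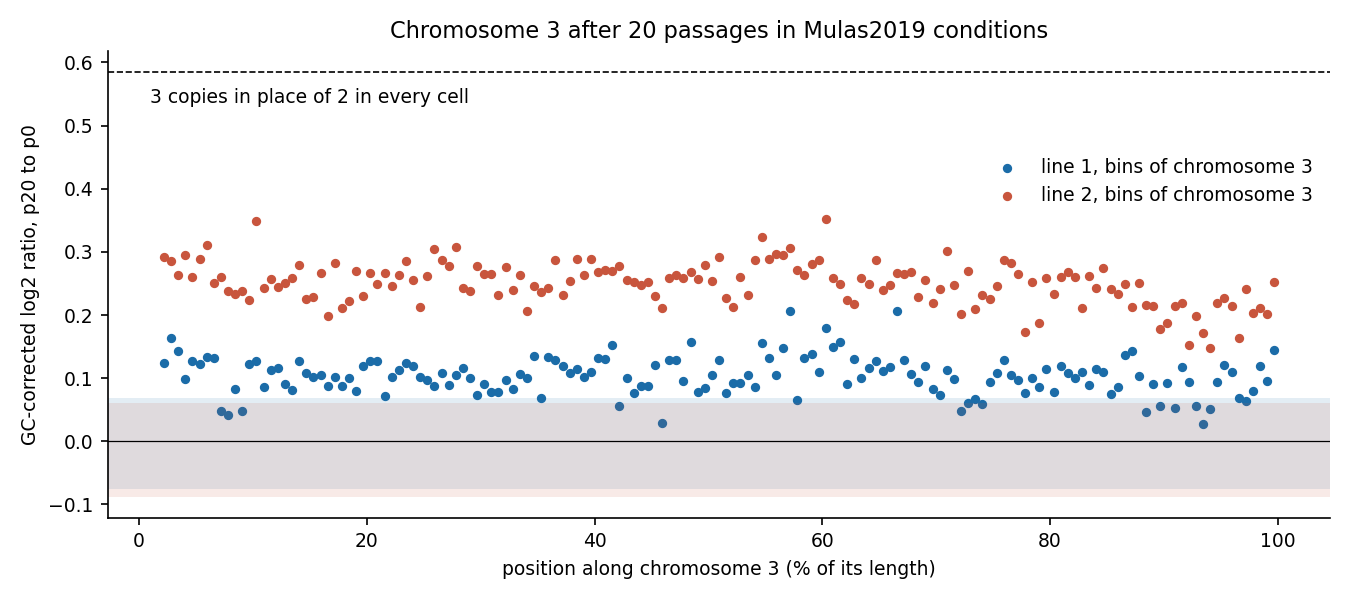
Each point is 1 bin of chromosome 3, plotted by its position in percent of the length of the chromosome and by its GC-corrected log2 ratio at p20 to p0, for line 1 (blue) and line 2 (red). The shaded bands span the 1st to 99th percentile of the bins on the other autosomes and the dashed line (0.58) marks 3 copies in place of 2 in every cell. Both lines stay above 0 from end to end, around 0.10 in line 1 and 0.25 in line 2.

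The excess of chromosome 3 was also present when its bins were set beside bins of like GC content. In the 8 GC deciles with at least 10 bins of chromosome 3, its median ratio exceeded that of the other autosomes by 0.09 to 0.13 in line 1 and by 0.25 to 0.28 in line 2. Of bins under 38% GC, 35 of 35 on chromosome 3 were called higher against 138 of 331 elsewhere. Between 38% and 44% GC the counts were 30 of 106 against 9 of 1251, and at 44% GC or more they were 0 of 16 against 0 of 652. These GC limits were chosen after the values were seen.

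The position of p20 among the other libraries was read from the same GC-corrected level of chromosome 3, given as the median of its bins minus that of the other autosomes. At p0 the value was 0.003 in line 1 and 0.009 in line 2. The p10 libraries of Mulas2019 conditions had 0.02 and 0.08, those of Keniry2022 conditions 0.03 and 0.04, and the p20 libraries of Mulas2019 conditions 0.11 and 0.28. The p20 libraries of Keniry2022 conditions had 0.18 under the label of replicate 1 and 0.09 under that of replicate 2. The replicate numbers of these last 2 libraries are in doubt, since their Y chromosome shares are in the opposite order to those of every other group. The difference in the chromosome 3 shift between p20 and p10 was 0.03 before the GC correction (SE 0.059, limma adjusted p 0.613) and 0.14 after it (SE 0.060, limma adjusted p 0.179). The GC-corrected difference was 0.06 between p20 Mulas2019 and p20 Keniry2022 (SE 0.060, limma adjusted p 0.759), and none of these passed the threshold. These comparisons share the p20 libraries with the one against p0. Over single bins, 399 autosomal bins (16.7%) were lower and 26 (1.09%) higher at p20 than at p10 in Mulas2019 conditions, and the count of higher bins ran from 1 without p10 replicate 1 to 54 without p20 replicate 1. It was 8 without p10 replicate 2 and 44 without p20 replicate 2. With the GC trend removed limma called 0 bins (1 at an unadjusted p under 0.05). Between p20 Mulas2019 and p20 Keniry2022, 0 bins were called with limma and 0 with voom, with 6 and 10 at an unadjusted p under 0.05. Whole autosomes did differ between these groups. Chromosomes 5, 7, 8, 9, 11, 12, 17 and 19 were lower in p20 Mulas2019 than in p20 Keniry2022, by shifts of -0.03 on chromosome 7 to -0.07 on chromosome 11 (limma adjusted p 0.0140 to 0.0235 over the 8). Between p20 and p10 in Mulas2019 conditions 12 autosomes were called. Chromosomes 7, 9, 11 and 17 were higher at p20 than at p10. Chromosomes 1, 4, 10, 12, 13, 14, 15 and 16 were lower. Chromosome 11 was higher by 0.08 (SE 0.017, limma adjusted p 0.00847), whereas its shift against p0 was -0.10. The bins named above as called higher against p0 all had a negative log2FC between p20 and p10, from -0.18 to -0.36. No autosome passed the threshold in either comparison after the GC correction, the lowest limma adjusted p being 0.384 between the protocols and 0.118 between the passages.

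The genes that carry the biology of these cells were examined through the bins that hold them, in 5 lists. The naive pluripotency list (Pou5f1, Nanog, Sox2 and other factors of the stem cell state) had 21 of 22 genes in 20 autosomal bins, of which 0 were called higher and 1 lower, against 8.87% and 0.167% of all autosomal bins. The lower bin is the chromosome 7 bin of Utf1 given above. The median log2FC of the list was -0.10 against 0.0008 over all autosomal bins, and the median GC content of its bins was 46.2% against 41.7%. After the GC correction its median was -0.004 in line 1 and -0.003 in line 2. The bins of the components of the 2i and LIF pathways (22 genes, 22 bins), growth control (30 genes, 29 bins), chromosome segregation (23 of 24 genes, 23 bins) and DNA methylation (10 genes, 10 bins) gave 0 calls in either direction. At the shares called over all autosomal bins, 8.87% higher and 0.167% lower, lists of 10 to 29 bins would seldom hold a lower call, so the 0 lower calls say little about these lists. The median log2FC of these 4 lists was -0.12, -0.12, -0.12 and -0.08 in the order given. Their GC-corrected medians lay between -0.004 and 0.015 in both lines. Outside chromosome 3, no bin of the 5 lists lay beyond 0.1 from 0 in both lines after the correction.

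Nanog, Pou5f1, Trp53 and Myc are named here for their roles and outside the rule, with their values known. Nanog, a core factor of the naive state, lies in a bin that held 440.8 and 433.0 CPM at p0 and 428.6 and 432.4 CPM at p20. The bin of Pou5f1, which encodes OCT4, held 534.5 and 524.9 CPM at p0 and 484.0 and 473.6 CPM at p20, and its GC content is 48.9%. By the rule for the lists, the lowest pluripotency bins were those of Utf1 (log2FC -0.22) and Fgf4 (log2FC -0.21), and the highest those of Sox2 (0.12) and Zfp42 (0.08). In the 2i and LIF list the lowest bins held Map2k2, which encodes MEK2 (-0.19), and Grb2, an adaptor of receptor tyrosine kinases (-0.18), and the highest held Lef1, a nuclear partner of beta-catenin (0.13), and Jak2, a kinase of cytokine receptors (0.003). Among growth control genes the lowest bins were those of the cyclin gene Ccnd1 (-0.21) and of Tsc1, an inhibitor of mTOR signalling (-0.20), and the highest those of Nras (0.16) and Pik3ca (0.14), a RAS protein and the catalytic subunit of PI3 kinase. The bin of Trp53, which encodes p53, held 590.3 and 567.1 CPM at p0 and 540.5 and 512.8 CPM at p20, and the bin of Myc held 360.2 and 372.9 CPM at p0 and 392.8 and 391.7 CPM at p20. Chromosome segregation genes had their lowest bins at Aurka (-0.19), a kinase of the spindle poles, and Mad1l1 (-0.18), a spindle checkpoint component, and their highest at Cenpe (0.20), a kinetochore motor, and Mad2l1 (0.11). DNA methylation genes had their lowest bins at Uhrf1 (-0.19), the recruiter of DNMT1, and Dnmt3b (-0.18), and their highest at Tet2 (0.23), which oxidises methylcytosine, and Zfp57 (0.11), a factor of imprinted regions. None of these bins passed the test apart from that of Utf1.

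The list members on chromosome 3 were higher in line 2 than in line 1, like the rest of it. Sox2, the partner of OCT4, lies in a bin that held 503.0 and 497.7 CPM at p0 and 511.5 and 577.6 CPM at p20 in lines 1 and 2. The bin of Nras held 514.3 and 510.6 CPM at p0 and 543.1 and 600.6 CPM at p20, and that of Pik3ca 506.2 and 515.9 CPM at p0 and 533.1 and 597.0 CPM at p20. In these 3 bins both p20 libraries lay above both p0 libraries, with line 2 further away. After the GC correction the 7 list bins on chromosome 3, which hold Sox2, Lef1, Nras, Mcl1, Pik3ca, Cenpe and Tet2, had log2 ratios of 0.07 to 0.13 in line 1 and 0.26 to 0.29 in line 2. Their log2FC before the correction was 0.10 to 0.23 and none was called. The GC content of these bins was 40.7% to 45.1%.

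**Figure D4:**
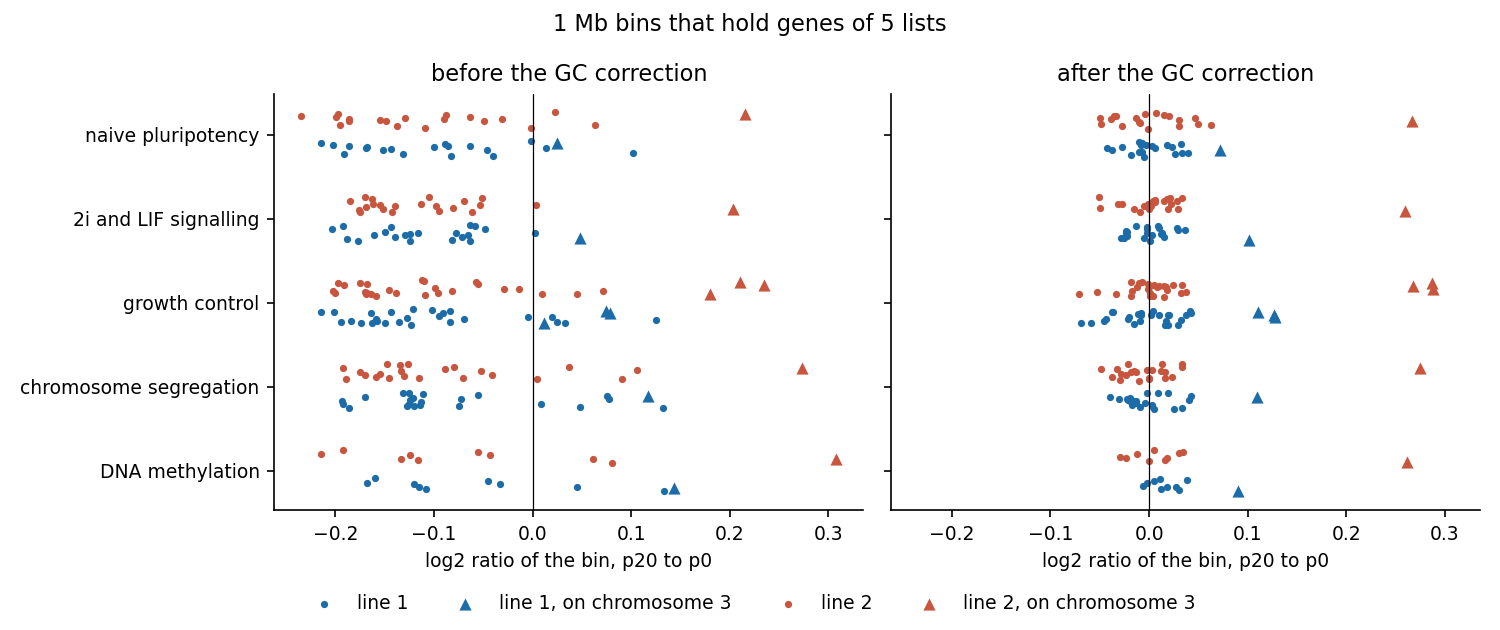
Points are the 1 Mb bins that hold the genes of 5 lists, plotted by log2 ratio at p20 to p0 in line 1 (blue) and line 2 (red), before (left) and after (right) the GC correction, with triangles for bins on chromosome 3. After the correction the bins outside chromosome 3 lie between -0.07 and 0.06, and the triangles lie at 0.07 to 0.13 in line 1 and 0.26 to 0.29 in line 2.

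With the GC trend removed, few bins outside chromosome 3 lay far from 0 in both lines, and 3 of them held a single 10 kb window with very many reads. Outside chromosome 3, 5 bins lay above 0.1 and 1 lay below -0.1 in both lines. The 5 were on chromosomes 2, 4, 7, 9 and 14. That on chromosome 4 is the Skint5 bin given above (0.10 in line 1 and 0.13 in line 2), and that on chromosome 14, from 19000001 to 20000000, had 0.10 in both lines and was named after its values were seen. The highest was the chromosome 2 bin from 98000001 to 99000000, with 0.25 in line 1 and 0.37 in line 2. Before the correction its log2FC of 0.57 (SE 0.407) was the largest of all autosomal bins and was not called (limma adjusted p 0.718), but it was called with voom (0.57, adjusted p 0.0209) and in the fit of the 4 libraries with a fixed block (0.57, limma adjusted p 0.0430). Over all its alternatives the adjusted p ran from 0.0209 to 1. Its window from 98660001 to 98670000 held 90.9% and 90.3% of the reads of the bin at p0, and went from 1991 to 2845 CPM in line 1 and from 1861 to 2980 CPM in line 2. The rest of that bin had uncorrected ratios of 0.22 and 0.26, near the 0.22 and 0.23 of the most AT-rich decile of bins. On chromosome 9, the window from 35300001 to 35310000 went from 114.9 to 164.2 CPM and from 112.2 to 174.2 CPM, a log2 ratio of 0.51 and 0.63, while the rest of its bin had -0.02 and -0.04. The chromosome 2 window had ratios of 0.51 and 0.68, close to those of the chromosome 9 window in both lines.

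**Figure D5:**
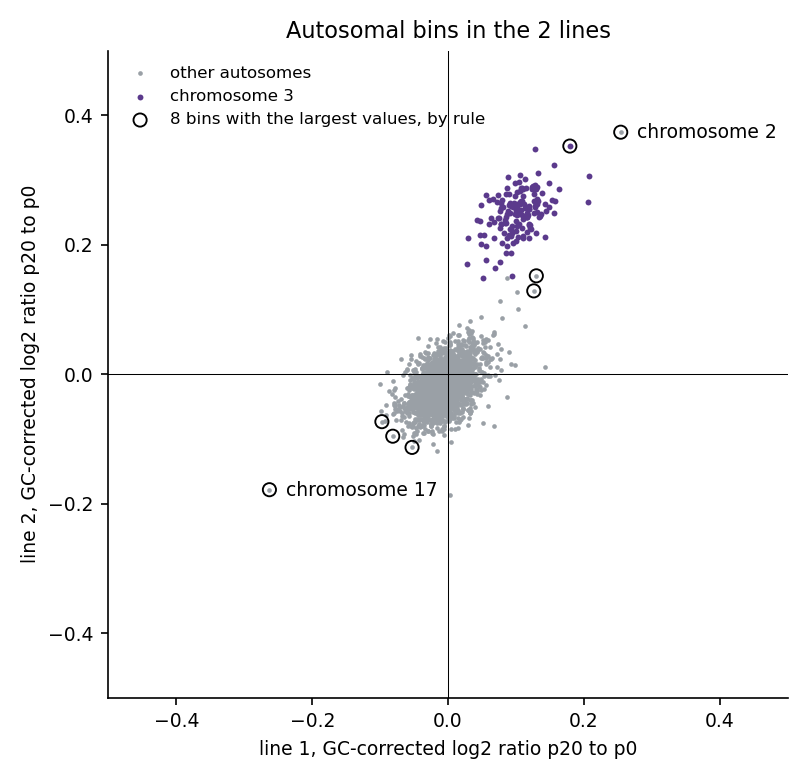
Each point is 1 autosomal bin, plotted by its GC-corrected log2 ratio at p20 to p0 in line 1 (horizontal) and line 2 (vertical), with chromosome 3 in purple and circles around the 8 bins with the largest values by rule. Chromosome 3 forms a separate cloud around 0.10 in line 1 and 0.25 in line 2, the chromosome 2 bin lies at 0.25 and 0.37, and the chromosome 17 bin at -0.26 and -0.18.

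In the other direction, the chromosome 17 bin from 39000001 to 40000000 had -0.26 in line 1 and -0.18 in line 2 after the GC correction, against -0.05 and 0.06 before it. Its window from 39840001 to 39850000, which has a GC content of 53.8% and holds the annotated ribosomal RNA sequence Rn18s-rs5 (39846354 to 39848202), went from 239.2 to 194.1 CPM in line 1 and from 203.2 to 184.5 CPM in line 2. The rest of the bin had uncorrected ratios of 0.22 and 0.23. Ribosomal RNA genes occur in many near-identical copies, so reads from other copies can map to this window and its level does not belong to this locus alone. Among the other bins named by the rule, the chromosome 7 bin from 59000001 to 60000000, which holds Ube3a, the ubiquitin ligase gene of the imprinted Angelman region, had 0.13 in both lines. Its fullest window held only 2.28% and 3.03% of its reads at p0, and the rest of the bin had uncorrected ratios of 0.15 and 0.14. The chromosome 3 bin from 96000001 to 97000000, with 38 protein-coding genes, had 0.18 in line 1 and 0.35 in line 2. Below 0, the bin on chromosome 7 from 69000001 to 70000000 had -0.08 and -0.10, that on chromosome 6 from 61000001 to 62000000, which holds part of Ccser1, had -0.10 and -0.07, and that on chromosome 14 from 41000001 to 42000000 had -0.05 and -0.11. Before the correction the chromosome 7 bin from 69000001 had 0.07 and 0.06 and the chromosome 6 bin 0.11 and 0.14, so the correction turned their direction. None of the 8 bins passed the test after the correction (limma adjusted p 1 for each).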

How the data were processed

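The authors deposited 1 table of log2 values in 272566 rows, most of them 10 kb windows. The submitters' processing notes name bcl2fastq, Bowtie2 and the mm10 build, with no versions. The deposited log2 values equalled the log2 of whole reads times the largest library total over the library's own, with 0.9 reads in empty windows (whole within 0.1 reads for 100.0% of values), whereas the study's methods describe GenomicAlignments counts in bins of 1 Mb. They were undone to reads, scaled to CPM and summed in 1 Mb bins, and 82 of 2473 autosomal bins under 0.1 of the median bin were dropped. The main fit was kept on the log2 scale of the deposit. Limma with a trended prior (limma 3.58.1, statmod 1.5.0, R 4.3.3) was used on log2 CPM of all 10 libraries in 5 groups, with the line as a random block (consensus correlation 0.132). TREAT (fold 1.1) and Benjamini-Hochberg adjustment at 0.05 followed. Voom on the recovered reads, which is the method the study used, was an alternative. GC content and annotation came from GRCm38 and GENCODE M21. The GC correction was a loess curve of log2 CPM on GC content with span 0.3. ENCODE blacklisted regions were not used here.

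The pairing by line comes from the study's design. The difference between the lines at p0 correlated with that at p20 by 0.023 over GC-corrected autosomal bins. Nothing in the labels gives separate cultures of 1 line, so the p-values rest on how libraries of the 2 lines differed within groups. In the main fits that spread was pooled over all groups, with the line as a random block. It was also drawn toward the spread of the other bins or chromosomes. PCR duplicates were not marked in the table, so intervals allow for counting error alone. On simulated data for p20 Mulas2019 against p0 (2541 bins), the test recovered 43 of 50 bins raised 1.2-fold and 40 of 50 lowered by the same factor. It recovered 50 of 50 raised 1.5-fold and made 0 false calls. The simulated noise was independent between bins and held no GC trend, so the 0 false calls say nothing about calls that follow that trend. Wilson 95% intervals were used for shares of reads.

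Named bins were the 6 highest and 6 lowest log2FC among called bins with the same sign in both lines (2 per chromosome and side at most), the 4 highest and 4 lowest mean GC-corrected ratios with the same sign in both lines (1 per chromosome and side), and the 2 highest and 2 lowest bins of each gene list. Only 4 bins were called lower, so all are named. Genes of a bin were at most 3 protein-coding genes with their midpoint in it, the longest first. Printed sequences were the first 100 bases from the centre of a bin with its rounded GC percent. The comparison, lists and rules were chosen with earlier results of these data known. Figures were drawn with matplotlib 3.10.9, and other steps ran in Python 3.11.15 (scipy 1.17.1, pandas 2.3.3, numpy 2.4.6).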

Additional observations from a re-analysis of the deposited data

Results flagged for a closer look

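Chromosome X, which lies outside the autosomal comparison, carried a higher share of reads at p20 than at p0. It held 2.24% and 2.25% of reads at p0 and 2.43% and 2.44% at p20 in lines 1 and 2. Its shift against the autosomal median was 0.14 (SE 0.021, limma adjusted p 0.00315), with 0.15 in line 1 and 0.14 in line 2. Its median bin has a GC content of 38.8%, and after the GC correction the shift was 0.012 (limma adjusted p 0.0371), or 0.015 and 0.009 in the 2 lines. The limma adjusted p was 0.0765 with a fixed replicate block after the correction.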

How the results depend on the processing

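With 2 lines per group, the counts of bins called between p20 and p0 rest on single libraries, and leaving out 1 p0 library ends every call of a bin between p20 and p0. The autosomal bins called higher and lower were 212 and 4. With the line as a fixed replicate block they were 269 and 25, and the chromosome 3 shift stayed at 0.20 (limma adjusted p 0.0444). With no replicate block they were 115 and 1. After the GC correction with a random or a fixed replicate block they were 0 and 0 with limma (7 at an unadjusted p under 0.05 in either), autosomes called went from 10 to 4 and 2, and the chromosome 3 shift was 0.18 (limma adjusted p 0.0843 and 0.109). Centred on the autosomal median they were 107 and 2, with 500 kb bins 352 and 22 of 4772, and with 2 Mb bins 90 and 1 of 1211. With no minimum change they were 1001 and 934, and with a minimum log2FC of 1.1, as the methods print it, 0 and 0 with limma (0 at an unadjusted p under 0.05). The lower count was 2 with no filter on low bins and 7 without both p20 Keniry2022 libraries. The random block could not be fitted to the 4 libraries of p0 and p20 Mulas2019 alone. Without a block those gave 2 lower bins, 6 autosomes and a chromosome 3 shift of 0.20 (limma adjusted p 0.113), and with a fixed block 32 lower bins and 0.20 (limma adjusted p 0.167).

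Over the 4 fits that leave out 1 library, the higher bins ranged from 0 to 188, the lower bins from 0 to 33, the autosomes called from 4 to 9, and the chromosome 3 shift from 0.12 to 0.28. The lower bins numbered 33 without p20 replicate 1. Autosomes called were 5 without p0 replicate 1 and 4 without p20 replicate 2. Leaving out a p0 library leaves that group with 1 library, which is then assumed to vary like the others. Voom gave 165 higher bins, of which 158 were among the 212. All 212 were also called with the fixed block, where they were 78.8% of the calls. The 425 bins that differed between p20 and p10 were 307 to 397 when single libraries were left out, with 1 to 54 of them higher in place of 26 (54 with voom, 2 when centred on the autosomal median, 39 with the fixed and 17 with no block), and 0 after the GC correction (1 at an unadjusted p under 0.05). The spread of line 1 and line 2 around p0 was 0.132 and 0.155, and 0.040 and 0.074 after the GC correction. Without chromosome 3 the spread of line 2 was 0.133 and its slope on GC content -0.035. Before the GC correction 3 bins named for low corrected ratios were above 0. They were -0.22 (chromosome 17 from 39000001), -0.0886 (chromosome 7 from 69000001) and -0.0853 (chromosome 6 from 61000001) after it. The chromosome 17 bin was also -0.00347 when centred on the autosomal median, and ran from -0.0402 to 0.0491 without single libraries, below 0 without p0 replicate 2 and without p20 replicate 2 (-0.00614). The causes were not tested. Crossing the p20 Keniry2022 replicate numbers, chosen after seeing the data, gave 195 and 4 bins.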

Other observations

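Chromosome Y was at very different levels in the 2 lines, and is given as shares because 1 of its bins passed the filter. In line 1 it held 442 reads at p0 (0.00145% of reads, 95% Wilson interval 0.00132 to 0.00159) and 125 reads at p20 (0.000356%, 0.000299 to 0.000424). In line 2 it held 16973 reads at p0 (0.0554%, 0.0546 to 0.0562) and 10784 reads at p20 (0.0377%, 0.0370 to 0.0384). The share was lower at p20 than at p0 in both lines.

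The bin outside chromosome 3 that differed most between the lines was on chromosome 14 from 43000001 to 44000000. After the GC correction it had 0.002 in line 1 and -0.19 in line 2. It held 98.1 CPM at p0 and 98.98 CPM at p20 in line 1, and 92.4 CPM at p0 and 81.2 CPM at p20 in line 2, with 22 protein-coding genes. It was named after its values were seen and was not called (limma adjusted p 1).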
